A study of Mus musculus with 6 samples.

Results

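AMP-activated protein kinase (AMPK) is built from a catalytic alpha, a scaffolding beta and a nucleotide-binding gamma subunit, and the genes of these subunits and of the kinases that switch the enzyme on were examined in skeletal muscle lacking Kvβ2. The members were 9 of the 37979 genes of the expression table, picked by name and known function with a rule that uses no measured value. They were the alpha subunits *Prkaa1* and *Prkaa2*, the beta subunits *Prkab1* and *Prkab2*, the gamma subunits *Prkag1*, *Prkag2* and *Prkag3*, and the upstream kinases *Stk11*, which encodes LKB1, and *Camkk2*. RNA came from the gastrocnemius (GAS), a mostly fast-twitch hindlimb muscle, of 3 WT and 3 KO mice with 1 library per mouse. The study describes the mice as males of 20 weeks obtained by interbreeding carriers of a Kvβ2 null allele, and the labels state that no treatment was given. The allele is not limited to muscle, so the nerves and other organs of a KO mouse lack Kvβ2 too. Libraries of both genotypes carry the replicate numbers 1, 7 and 8.

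Values are FPKM, which count the fragments on each kilobase of transcript relative to all mapped fragments of a library, so the levels of different genes in a library can be set side by side. Genotypes were compared with limma on log2(FPKM + 0.1) over 12334 genes whose mean reached 0.5 FPKM, and p-values were adjusted over all of them by the method of Benjamini and Hochberg. Fold changes are KO against WT on that scale, which understates the change of low genes. A permutation test of 3 against 3 libraries cannot give a p under 0.1. The targeted gene *Kcnab2*, which encodes Kvβ2, had WT levels of 0.233 (replicate 1), 0.1 (replicate 7) and 0.110 (replicate 8) FPKM. Of the KO replicates, 1 and 8 list it at 0, and 7 holds 0.0151 FPKM. Each KO library was thus under each WT library (two-sided exact permutation p = 0.1), at levels too low for the filter. Depth was estimated at 13960000 to 18150000 fragments in the KO and 19240000 to 20140000 in the WT libraries, so every KO library was shallower than every WT library. In such whole-muscle RNA, fewer cells of a type and less RNA per cell cannot be told apart.

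AMPK is the energy sensor of the cell. AMP and ADP bind the gamma subunit when ATP is used up, and the enzyme becomes active once a threonine in the activation loop of its alpha subunit is phosphorylated. LKB1 is the main kinase for that threonine in contracting muscle, and CaMKK2 phosphorylates it in response to calcium. Active AMPK then phosphorylates proteins that raise glucose uptake and fatty acid oxidation and restrain lipid and protein synthesis. The gamma subunit of *Prkag3* is largely restricted to fast glycolytic muscle. The FPKM measure transcripts, and neither subunit protein nor kinase activity was measured in these libraries.

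The coding sequence around that threonine is shown for both alpha genes, since it is the site on which *Stk11* and *Camkk2* converge. It is the only threonine between the conserved motifs that open and close the activation segment. The sense strand is given 5′ to 3′, with the threonine codon in capitals, as read from GRCm38.

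Prkaa1: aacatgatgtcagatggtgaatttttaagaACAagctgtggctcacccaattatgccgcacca

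Prkaa2: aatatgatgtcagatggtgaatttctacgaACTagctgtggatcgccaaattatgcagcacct

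The *Prkaa1* stretch lies on the plus strand of chromosome 15 from 5169937 to 5169999, and the *Prkaa2* stretch on the minus strand of chromosome 4 from 105049351 to 105049413. Both lie in exon 5 of 9 in GENCODE vM21. The codon is that of residue 183 of 559 in *Prkaa1* and of residue 172 of 552 in *Prkaa2*. Over 63 bases the genes differ at 9 and are identical at 54, and 0 of the 21 encoded residues differ. This part of the activation loop is thus the same in both catalytic subunits at the protein level. The longest run of bases that the transcripts of the alpha genes share is 35, against 23 for the beta genes and 11 to 17 for pairs of gamma genes. Each is shorter than a read of 150 bases.

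In WT muscle the order of the levels was led by the subunits typical of skeletal muscle. *Prkab2* was highest at 130.5 ± 22.4 FPKM (SD, n = 3), and *Prkag3* followed at 91.4 ± 28.75 FPKM (SD, n = 3). Their ranges overlapped, but *Prkag3* lay under *Prkab2* in 3 of 3 WT and 3 of 3 KO libraries. Only 3.6% and 4.6% of the tested genes had a higher mean over the 6 libraries. *Prkaa2* at 40.6 ± 0.86 FPKM, *Stk11* at 31.8 ± 3.496 FPKM and *Prkag1* at 19.0 ± 0.218 FPKM (SD, n = 3 each) came next, with ranges that were apart from each other. *Prkab1* at 5.64 ± 0.732 FPKM stood above *Prkag2* at 3.96 ± 0.547 FPKM and *Prkaa1* at 3.78 ± 0.320 FPKM (SD, n = 3 each), and *Prkag2* and *Prkaa1* did not differ beyond their spread. *Camkk2* was the lowest member at 0.457 ± 0.123 FPKM (SD, n = 3), and 99.2% of the tested genes had a higher mean. At these depths its level amounts to 5.72 to 16.4 fragments per kilobase of transcript, against 38.4 to 80.3 for *Prkaa1*. Its values thus rest on fewer fragments per kilobase than those of any other member. The count on the whole gene depends on the length of the transcripts expressed, and its counting error was not estimated. In KO muscle the order was the same except that *Stk11* stood above *Prkaa2*, and the ranges of *Prkab1* and *Prkag2* overlapped.

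**Figure D1:**
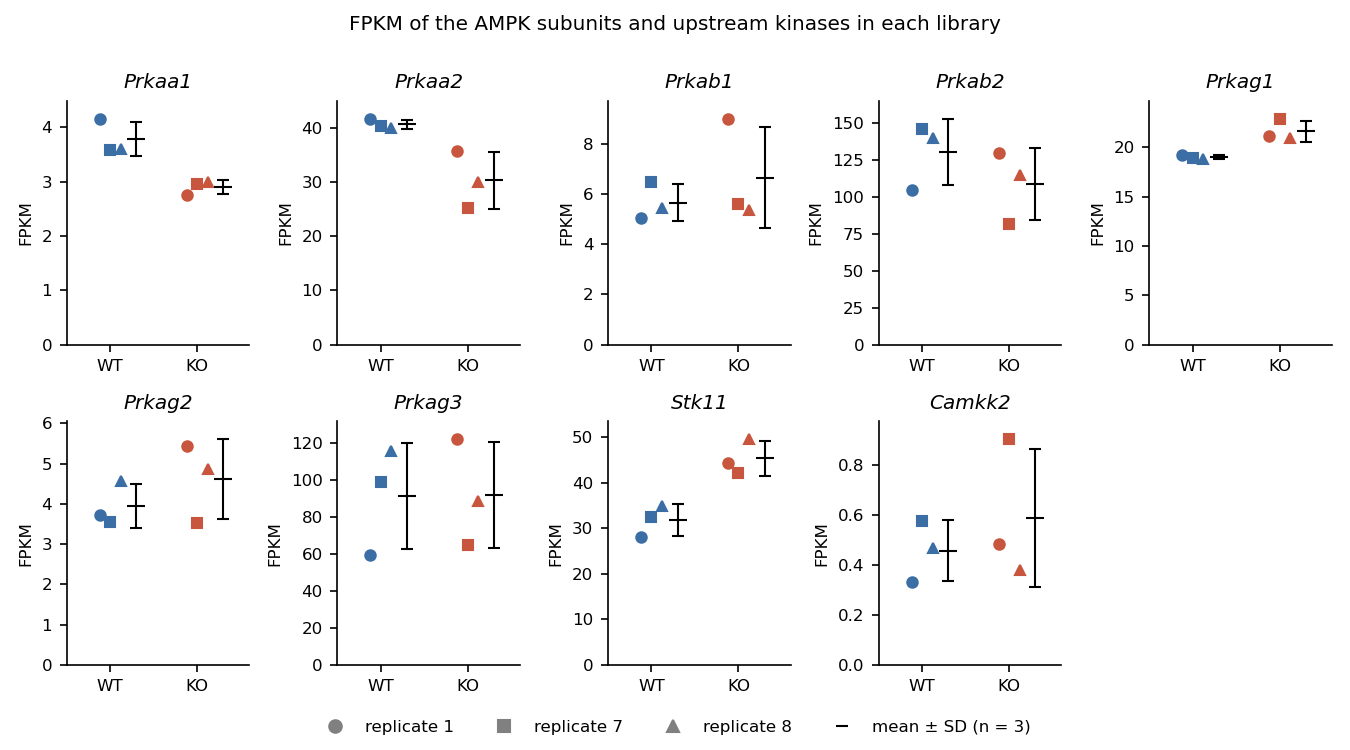
FPKM of the 9 members in WT and KO libraries, each panel with its own axis from 0; symbols are the replicates 1, 7 and 8, and the bar with whiskers is the mean ± SD of 3 libraries. The genotypes are apart for *Prkaa1* and *Prkaa2*, lower in KO, and for *Prkag1* and *Stk11*, higher in KO, and they overlap for the other 5 members.

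None of the 9 members passed the test across all genes. At an adjusted p under 0.05 limma called 0 members higher and 0 lower in the KO mice, where 0.251% of all tested genes were called higher and 0.073% lower. At an unadjusted p under 0.05, 1 member was higher (*Stk11*) and 2 were lower (*Prkaa1* and *Prkaa2*), beside 15.3% of tested genes higher and 10.9% lower. The KO libraries lay wholly above the WT libraries for 2 members and wholly under them for 2, beside 18.3% and 16.2% of tested genes. Beside these shares, the counts do not set the members apart from the rest of the transcriptome. With limma's array weights, which give each library its own weight, 1 member was called higher and 2 lower, in a fit that called 1863 of all genes higher and 1284 lower.

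Both genes of the catalytic alpha subunit were lower in each KO library than in any WT library. *Prkaa2* (ENSMUSG00000028518, chromosome 4, 105029874 to 105109890, minus strand) encodes the alpha subunit that prevails in skeletal muscle. It stood at 41.6, 40.3 and 39.95 FPKM in WT, and at 35.7, 25.2 and 29.9 FPKM in KO muscle, for replicates 1, 7 and 8 in turn. The WT libraries were close together, while the KO libraries were spread, with replicate 7 lowest. The log2 fold change was -0.44 (SE 0.14), which corresponds to means of 40.6 and 30.3 FPKM, and did not pass the limma test (adjusted p = 0.118). *Prkaa1* (ENSMUSG00000050697, chromosome 15, 5143861 to 5181899, plus strand), the alpha subunit that is widespread in other tissues, stood at 4.15, 3.59 and 3.61 FPKM in WT muscle, against 2.75, 2.96 and 2.99 FPKM in KO muscle (replicates 1, 7 and 8). Here the KO libraries were close together and replicate 1 was the highest WT library. The log2 fold change was -0.37 (SE 0.13, limma adjusted p = 0.134). The summed FPKM of the alpha genes ranged from 43.55 to 45.7 in WT and from 28.2 to 38.5 in KO muscle, without overlap (two-sided exact permutation p = 0.1, the smallest possible).

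The beta subunit holds the complex together and carries a glycogen-binding domain, and neither of its genes separated the genotypes. *Prkab2* (ENSMUSG00000038205, chromosome 3, 97658193 to 97673812, plus strand), the beta subunit of muscle, had WT levels of 104.8, 146.4 and 140.2 FPKM in replicates 1, 7 and 8. In the KO replicates it stood at 129.8, 82.0 and 115.0 FPKM. WT replicate 1 lay under 2 of the KO libraries, and the lowest library of all was KO replicate 7. The log2 fold change was -0.27 (SE 0.20, limma adjusted p = 0.421). *Prkab1* (ENSMUSG00000029513, chromosome 5, 116013586 to 116024508, minus strand) ranged from 5.03 to 6.45 FPKM in WT muscle, and stood at 8.97, 5.60 and 5.36 FPKM in KO replicates 1, 7 and 8. KO replicate 1 stood above all other libraries. The log2 fold change of 0.20 (SE 0.21, limma adjusted p = 0.576) became -0.04 without that library, so its sign rests on KO replicate 1.

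The gamma subunit binds the adenine nucleotides, and only *Prkag1* among its genes separated the genotypes. *Prkag1* (ENSMUSG00000067713, chromosome 15, 98812797 to 98831521, minus strand), the widespread gamma subunit, had 19.2, 18.95 and 18.8 FPKM in WT, and 21.1, 22.9 and 20.9 FPKM in KO replicates 1, 7 and 8. The groups did not overlap, with a small distance between them and a spread of only 0.218 FPKM (SD, n = 3) among WT libraries. The log2 fold change was 0.19 (SE 0.10, limma adjusted p = 0.257). *Prkag2* (ENSMUSG00000028944, chromosome 5, 24862744 to 25100642, minus strand), known for mutations that cause glycogen storage in the heart, stood at 3.74, 3.56 and 4.58 FPKM in WT muscle, against 5.45, 3.52 and 4.88 FPKM in KO muscle (replicates 1, 7 and 8). The KO libraries included both the highest and the lowest value, and the log2 fold change was 0.20 (SE 0.19, limma adjusted p = 0.518).

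*Prkag3* (ENSMUSG00000006542, chromosome 1, 74738922 to 74749221, minus strand) had nearly equal means in the genotypes, 91.4 ± 28.75 FPKM in WT and 91.95 ± 28.6 FPKM in KO muscle (SD, n = 3 each), with a log2 fold change of 0.015 (SE 0.30, limma adjusted p = 0.979). Within each genotype it varied widely. Replicates 1, 7 and 8 held 59.7, 98.8 and 115.8 FPKM in WT muscle, and 122.1, 65.2 and 88.6 FPKM in KO muscle. The lowest and the highest library were WT replicate 1 and KO replicate 1, and the SE of this gene was larger than that of any other member but *Camkk2*. The sign of its fold change depended on the libraries used, with a log2 value of -0.27 without WT replicate 1 and -0.21 without KO replicate 1, and 0.24 without KO replicate 7.

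Exons of *Prkag1* share 950 bases with the antisense gene B130046B21Rik, and exons of *Prkag2* share 795 bases with Prkag2os2 and 142 with Prkag2os1. The library kit marks strand, but whether the quantification used strand is not given in the sources used here, so reads of these genes and of their antisense partners may not be told apart.

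The share of each isoform within its subunit type does not depend on how a library was scaled. *Prkaa2* made up 90.9%, 91.8% and 91.7% of the alpha FPKM in WT replicates 1, 7 and 8, and 92.85%, 89.5% and 90.9% in the KO replicates. *Prkab2* made up 95.4% to 96.3% of the beta FPKM in WT and 93.5% to 95.55% in KO muscle, and *Prkag3* made up 72.2% to 83.2% and 71.2% to 82.1% of the gamma FPKM. The groups overlapped in each of these. The KO minus WT difference was -0.402 percentage points for *Prkaa2*, -1.59 for *Prkab2* and -2.04 for *Prkag3*, with exact two-sided permutation p-values of 0.7, 0.2 and 0.6. Adjusted over the 3 shares they were 0.7, 0.6 and 0.7. *Prkag1* held 17.5% ± 5.13 (SD, n = 3) of the gamma FPKM in WT and 19.2% ± 5.44 (SD, n = 3) in KO muscle, and *Prkag2* held 3.58% ± 0.832 and 3.93% ± 0.306 (SD, n = 3 each). The make-up of the pool was thus that of *Prkaa2*, *Prkab2* and *Prkag3* in all 6 libraries, while the summed alpha FPKM, and not its division between the genes, separated the genotypes as deposited.

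**Figure D2:**
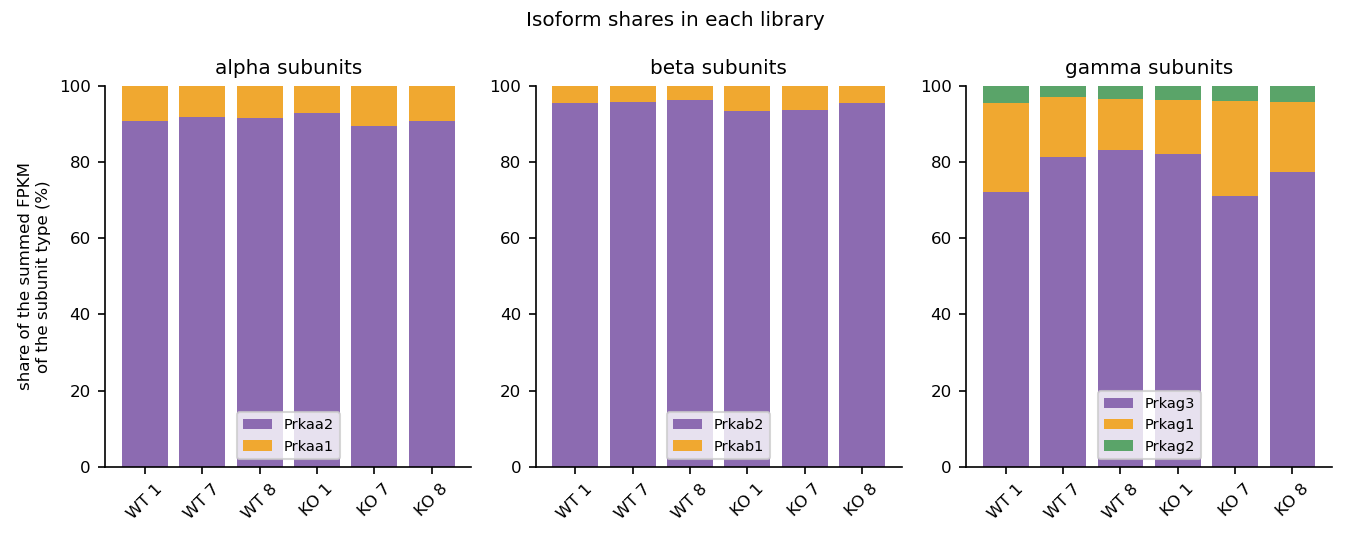
Share of each isoform in the summed FPKM of the alpha, beta and gamma subunits, in percent, with 1 bar for each of the 6 libraries. *Prkaa2* and *Prkab2* hold at least 89.5% of their subunit type in every library, and *Prkag3* varies from 71.2% to 83.2% over the 6 libraries.

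Of the upstream kinases, *Stk11* was higher in each KO library than in any WT library. *Stk11* (ENSMUSG00000003068, chromosome 10, 80115803 to 80130682, plus strand) had 28.0, 32.4 and 34.9 FPKM in WT, and 44.2, 42.2 and 49.5 FPKM in KO replicates 1, 7 and 8. The groups were well apart, and the mean was 1.43-fold that of WT. The log2 fold change of 0.51 (SE 0.12) was the largest of the members and had the smallest p of them (unadjusted p = 0.00365), but it did not pass at limma's adjusted p of 0.0785. Its exons share 232 bases with *Cbarp* on the opposite strand. *Camkk2* (ENSMUSG00000029471, chromosome 5, 122731170 to 122779409, minus strand) stood at 0.330, 0.575 and 0.465 FPKM in WT muscle, against 0.483, 0.901 and 0.379 FPKM in KO muscle (replicates 1, 7 and 8). The ranges overlapped, and at this depth a log2 fold change of 0.26 (SE 0.41, limma adjusted p = 0.715) could not be told from none.

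Because *Stk11* was higher and *Prkaa2* lower, their order was exchanged between the genotypes, a comparison picked after the values were seen. The *Stk11* FPKM was 0.674, 0.804 and 0.874 times that of *Prkaa2* in WT replicates 1, 7 and 8 and 1.24, 1.67 and 1.65 times in the KO replicates. The kinase gene lay under its substrate gene in each WT library and above it in each KO library.

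Of the members whose genotypes were apart, 3 lie far from the median base composition. The annotated transcripts of *Prkaa1* and *Prkaa2* have a GC content of 40.1% and 40.7%, and those of *Stk11* 58.1%, where the median tested gene has 50.1%. Across 11985 tested genes of known GC content, the log2 fold change rose with GC content (Spearman's rho = 0.704, a description across genes, which are not independent replicates). The 468 genes within 1 percentage point of *Prkaa1* had a median log2 fold change of -0.35, and 426 of them were lower in KO. For the 585 genes around *Prkaa2* the median was -0.33, with 528 lower. For the 850 genes around *Stk11* it was 0.53, with 792 higher. The values of the members, -0.37, -0.44 and 0.51, were close to those of genes of like composition. *Prkag1* at 51.3% GC stood at 0.19 beside a median of 0.07 for 1340 such genes. *Prkab1* and *Prkag3* stood at 0.20 and 0.015 beside medians of 0.41 and 0.27, and *Prkag2* at 0.20 beside -0.08.

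When each library was corrected for this trend, 0 of the 9 members separated the genotypes. *Prkaa2* then ranged from 35.03 to 37.3 FPKM in WT muscle and from 30.2 to 38.8 FPKM in that of KO mice (log2 fold change -0.09, SE 0.11, limma adjusted p = 0.804). *Prkaa1* had 3.14 to 3.46 FPKM in WT and 2.999 to 3.59 FPKM in KO libraries (log2 fold change -0.008, SE 0.12). *Stk11* had 37.8 to 38.8 FPKM in WT and 32.3 to 42.0 FPKM in KO libraries, and its log2 fold change took the opposite sign at -0.02 (SE 0.12, limma adjusted p = 0.964). The ratio of *Stk11* to *Prkaa2* became 1.04 to 1.081 in WT and 1.00 to 1.27 in KO libraries, and the order of these genes was no longer exchanged. The summed alpha FPKM overlapped too, at 38.5 to 40.7 in WT and 33.8 to 41.8 in KO libraries. At an unadjusted p under 0.05, 0 members were higher and 0 lower, beside 5.37% and 5.43% of the 11985 genes, and 0 members had libraries apart in either direction, beside 8.14% and 9.16%. *Prkag2* had the largest corrected value, 0.28 (SE 0.19), with overlapping FPKM of 3.43 to 4.56 in WT and 3.66 to 5.62 in KO libraries. Its share of the gamma FPKM was then 2.70% to 3.73% in WT and 3.98% to 4.69% in KO libraries. The two-sided exact permutation p of 0.1 is the smallest possible and is not adjusted. This share was picked after the values were seen, and the other corrected shares overlapped. The correction lowered *Stk11* in each of the 3 KO libraries and raised it in each of the 3 WT libraries. Genotype and the trend on base composition cannot be told apart in these libraries.

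**Figure D3:**
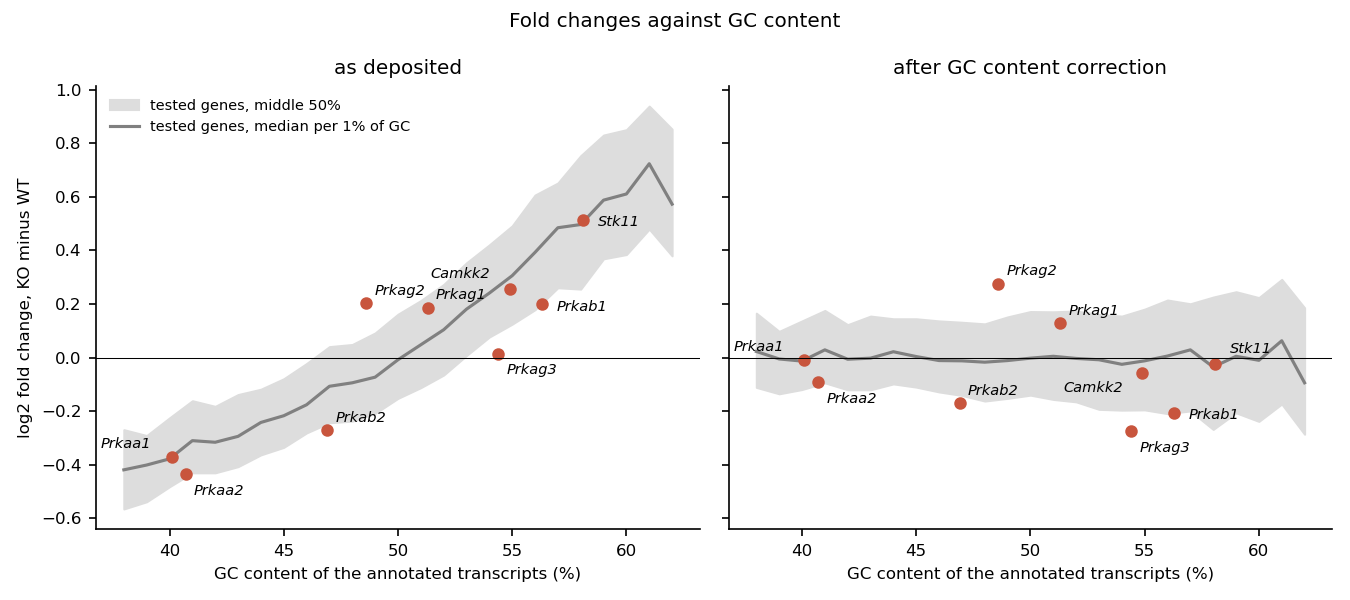
Log2 fold change, KO minus WT, against the GC content of the annotated transcripts in percent, as deposited on the left and after the correction on the right; red points are the 9 members, the grey line is the median of tested genes per 1% of GC and the band their middle 50%. As deposited, *Prkaa1*, *Prkaa2* and *Stk11* lie near the grey line, and after the correction they lie at -0.008, -0.09 and -0.02.

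The coding part alone of the alpha genes is less poor in GC than the whole transcripts, at 47.5% in *Prkaa1* and 49.0% in *Prkaa2*. For *Stk11* the coding part has 58.3% GC, about that of its whole transcripts.

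Markers of muscle fibers and of other cells were read beside these values. The fiber genes were abundant in every library, with a summed FPKM of 12210 to 18560 in WT and 24090 to 28370 in KO muscle for 7 genes such as *Acta1* and *Ckm*, of which 5 were higher at an unadjusted p under 0.05, beside 15.3% of all tested genes, and 0 at an adjusted one. After the correction for GC content 2 of the 7 were higher at that p, beside 5.37%. Their median log2 fold change went from 0.81 to 0.41. The major fast fiber genes *Myh4*, *Atp2a1* and *Tnnt3* have entries of 0 in each of the 6 libraries, and a 0 of this kind is not a measured absence in such muscle. The 7 other fast fiber genes summed to 55540, 70900 and 75860 FPKM in WT, and to 76520, 54250 and 68070 FPKM in KO replicates 1, 7 and 8. *Prkag3* stood in nearly that order, with KO replicate 1 and WT replicate 8 on top and WT replicate 1 and KO replicate 7 at the bottom. The genotypes overlapped in both, and 0 of the 7 genes passed an unadjusted p under 0.05.

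The 8 slow fiber genes summed to 824, 581 and 43.1 FPKM in WT and to 308, 997 and 1697 FPKM in KO replicates 1, 7 and 8, so WT replicate 8 held far less slow fiber RNA than the other libraries. The 7 adipocyte genes all had positive fold changes, 5 of them at an unadjusted p under 0.05, beside 15.3% of all tested genes. After the correction for GC content 5 were still higher at that p, beside 5.37%. Their median log2 fold change went from 2.02 to 1.7. The adipocyte genes summed to 234.3 to 444 FPKM in WT and 304 to 623 FPKM in KO libraries. Most of this sum was *Fabp4*, at 216.8 to 408.8 FPKM in WT and 257.9 to 450.4 FPKM in KO libraries. Singly, 4 of the 7 genes were higher in each KO library than in any WT library, beside 18.3% of all tested genes. KO replicate 7 was the highest in the adipocyte sum and the lowest in *Prkaa2*, *Prkab2* and the fast fiber sum. Without it the log2 fold change of *Prkab2* was -0.08 and that of *Prkaa2* was -0.31. The sums of endothelial, leukocyte, fibroblast, Schwann cell, smooth muscle and erythroid markers overlapped between the genotypes, but single genes in them did not. Of 6 smooth muscle and pericyte genes, 5 were higher in each KO library than in any WT library, beside 18.3% of all tested genes. The remaining 1, *Rgs5*, the most abundant of them in every library, was lower in each KO library, beside 16.2%. After the correction for GC content 2 of the 6 were higher at an unadjusted p under 0.05, beside 5.37%. Their median log2 fold change went from 0.62 to 0.30. Of 5 erythroid genes, the 2 hemoglobin genes *Hba-a1* and *Hba-a2* were higher in each KO library, beside 18.3% of all tested genes. Their log2 fold changes were 1.31 and 1.02, or 0.815 and 0.546 after the correction for GC content. *Hbb-bs*, *Alas2* and *Hbb-bt* overlapped between the genotypes, at 0.23, 0.16 and 0.005. All 5 tested leukocyte genes had positive values, 1 of them at an unadjusted p under 0.05, beside 15.3% of all tested genes. These genes were picked after their values were seen, and 0 passed the adjusted test. The part of fiber type or of other cells in the values of the members was not tested.

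**Figure D4:**
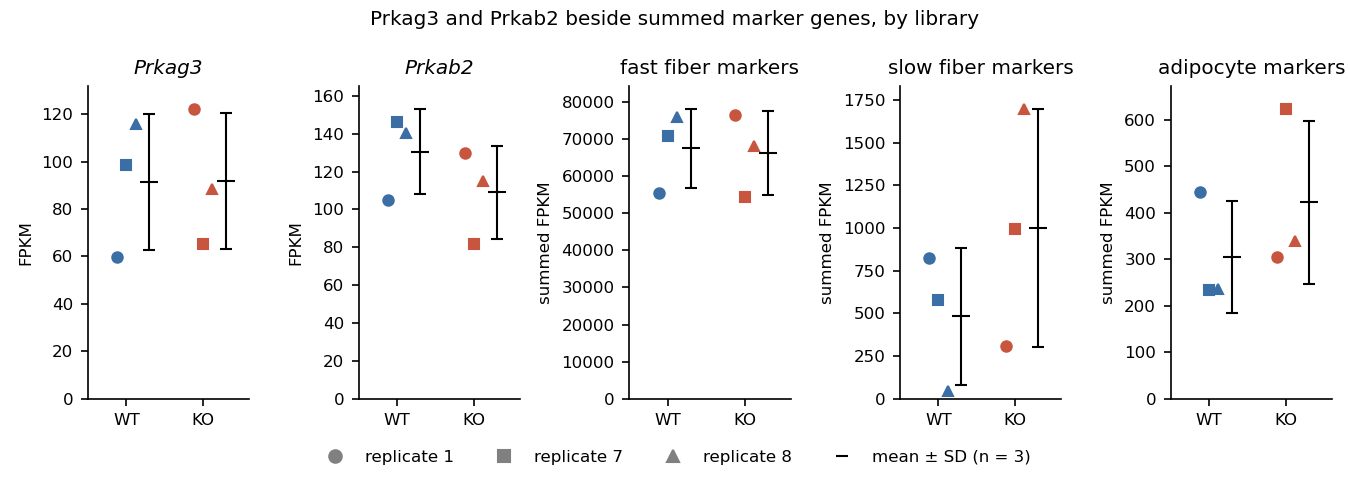
*Prkag3* and *Prkab2* in FPKM beside the summed FPKM of fast fiber, slow fiber and adipocyte markers, by library, with the mean ± SD of 3 libraries per genotype; each axis starts at 0. *Prkag3* and the fast fiber sum are both lowest in WT replicate 1 and KO replicate 7, and the genotypes overlap in all 5 panels. The adipocyte sum is mostly *Fabp4*, and 4 of its 7 genes are singly higher in each KO library, beside 18.3% of all tested genes.

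LKB1 works in a complex with the pseudokinase STRAD and the scaffold MO25, and 4 genes of these partners were tested. All 4 had negative values, where *Stk11* had a positive one, 0 passed an unadjusted p under 0.05, and their median was -0.19, beside 0.01 for all tested genes. *Cab39*, which encodes a form of MO25, stood at 55.6, 64.2 and 58.5 FPKM in WT muscle, against 52.7, 44.3 and 53.9 FPKM in KO muscle (replicates 1, 7 and 8), without overlap (log2 fold change -0.24, limma adjusted p = 0.233). Values were -0.20 for *Cab39l*, -0.18 for *Stradb* and -0.003 for *Strada*. After the correction for GC content the median of the 4 was 0.02.

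Among 13 tested of 15 other upstream kinases and regulators of AMPK, 2 were higher and 0 lower at an unadjusted p under 0.05, beside 15.3% and 10.9% of all tested genes, with a median of 0.13. These 2, named after their values were seen, were *Tab1*, whose product activates TAK1 (log2 fold change 0.85, limma adjusted p = 0.0700), and *Sesn2*, which encodes a stress-induced sestrin (0.77, limma adjusted p = 0.178), both higher in each KO library than in any WT library. After the correction for GC content their values were 0.31 and 0.20. Of the 13 genes 1 was then higher and 0 lower at an unadjusted p under 0.05, beside 5.37% and 5.43%, and the median was 0.204. The higher gene, also named after its value was seen, was *Adk*, which went from 0.14 to 0.48 (limma adjusted p = 0.374). *Map3k7*, which encodes the kinase TAK1, had a log2 fold change of -0.05. The folliculin gene *Flcn* and its partners *Fnip1* and *Fnip2*, which bind AMPK, had values of 0.40, -0.15 and 0.20. *Camkk1*, the sister gene of *Camkk2*, stood under the filter at 0.192, 0.279 and 0.440 FPKM in WT muscle, against 0.164, 0.625 and 0.210 FPKM in KO muscle (replicates 1, 7 and 8). Both CaMKK genes were thus close to or under the filter in this muscle, and both were highest in KO replicate 7.

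LKB1 also activates a family of AMPK-related kinases. Of 12 such genes 9 were tested, 4 were higher and 0 lower at an unadjusted p under 0.05, beside 15.3% and 10.9% of all tested genes, and the median log2 fold change was 0.32. After the correction for GC content 1 was higher and 0 lower, beside 5.37% and 5.43%, and the median was 0.06. *Sik1*, a salt-inducible kinase that is also a target of CREB, stood at 1.57, 1.25 and 1.65 FPKM in WT muscle, against 3.195, 2.26 and 6.34 FPKM in KO muscle (replicates 1, 7 and 8). Each KO library was above each WT library, with KO replicate 8 highest, and the log2 fold change was 1.22 (limma adjusted p = 0.0983). For *Nuak1* it was 0.52 (limma adjusted p = 0.162). With GC content corrected, the values were 0.80 for *Sik1* (limma adjusted p = 0.507) and 0.39 for *Nuak1* (limma adjusted p = 0.519).

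Genes of 25 proteins that AMPK phosphorylates had more members on the higher side. At an unadjusted p under 0.05, 11 were higher and 2 lower, beside 15.3% and 10.9% of all tested genes, 0 passed the adjusted test, and the median was 0.37. After the correction 4 were higher and 1 lower, beside 5.37% and 5.43%, and the median was 0.06. Both acetyl-CoA carboxylase genes were higher in each KO library than in any WT library. *Acaca*, which makes malonyl-CoA for fatty acid synthesis, stood at 1.82, 2.55 and 2.26 FPKM in WT muscle, against 3.49, 4.42 and 3.39 FPKM in KO muscle, for replicates 1, 7 and 8 (log2 fold change 0.75, limma adjusted p = 0.0785). *Acacb*, which makes the malonyl-CoA that limits mitochondrial fatty acid entry, stood at 15.5, 22.1 and 18.4 FPKM in WT muscle, against 30.2, 27.1 and 31.0 FPKM in KO muscle (log2 fold change 0.67, limma adjusted p = 0.0750). With GC content corrected, the log2 fold change was 0.84 for *Acaca* (unadjusted p = 0.00244, limma adjusted p = 0.286) and 0.22 for *Acacb*.

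*Tbc1d4*, which encodes the Rab GTPase-activating protein AS160 that holds back GLUT4 until it is phosphorylated, went the other way. It stood at 4.70, 5.49 and 3.78 FPKM in WT muscle, against 3.17, 1.995 and 2.91 FPKM in KO muscle (replicates 1, 7 and 8), with no overlap and KO replicate 7 lowest (log2 fold change -0.78, limma adjusted p = 0.0956). The value with GC content corrected was -0.83 (unadjusted p = 0.00399, limma adjusted p = 0.286), so this gene kept its direction and size. Its paralog *Tbc1d1* had a log2 fold change of -0.08 with overlapping libraries, and the autophagy kinase gene *Ulk1* one of 0.34.

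Among 17 transcripts reported to follow AMPK activity in muscle, 4 were higher and 0 lower at an unadjusted p under 0.05, beside 15.3% and 10.9% of all tested genes, with a median of 0.24. After the correction for GC content 0 were higher and 0 lower, beside 5.37% and 5.43%, and the median was 0.16. *Slc2a4*, the gene of the glucose transporter GLUT4, stood at 142.7, 182.9 and 193.7 FPKM in WT muscle, against 236.3, 219.4 and 249.4 FPKM in KO muscle (replicates 1, 7 and 8). The libraries did not overlap, and the log2 fold change was 0.45 (limma adjusted p = 0.109), or 0.09 after the correction. *Ppargc1a*, the gene of the coactivator PGC-1alpha, had a log2 fold change of -0.03, *Hk2*, which encodes hexokinase 2, one of -0.20, and *Pdk4*, which encodes a kinase that shuts pyruvate dehydrogenase, one of -0.31, all with overlapping libraries.

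Of 11 genes for calmodulin and calmodulin-dependent kinases, the calcium branch beside *Camkk2*, 8 were tested, 1 was higher and 1 lower at an unadjusted p under 0.05, beside 15.3% and 10.9% of all tested genes, and the median was -0.04. Named after their values were seen, *Camk2b* was higher in each KO library (log2 fold change 0.58, limma adjusted p = 0.107) and the calmodulin gene *Calm2* lower (-0.57, limma adjusted p = 0.0962). After the correction for GC content they stood at 0.20 and -0.30. Of the 8 genes 0 were then higher and 1 lower at an unadjusted p under 0.05, beside 5.37% and 5.43%, and the median was -0.066. The lower gene was *Calm3*, which went from -0.11 to -0.52 (limma adjusted p = 0.459). *Camk2a* had 88.8 to 172.7 FPKM in WT and 122.5 to 194.7 FPKM in KO libraries. None of the 6 lists held a gene past the adjusted threshold.

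**Figure D5:**
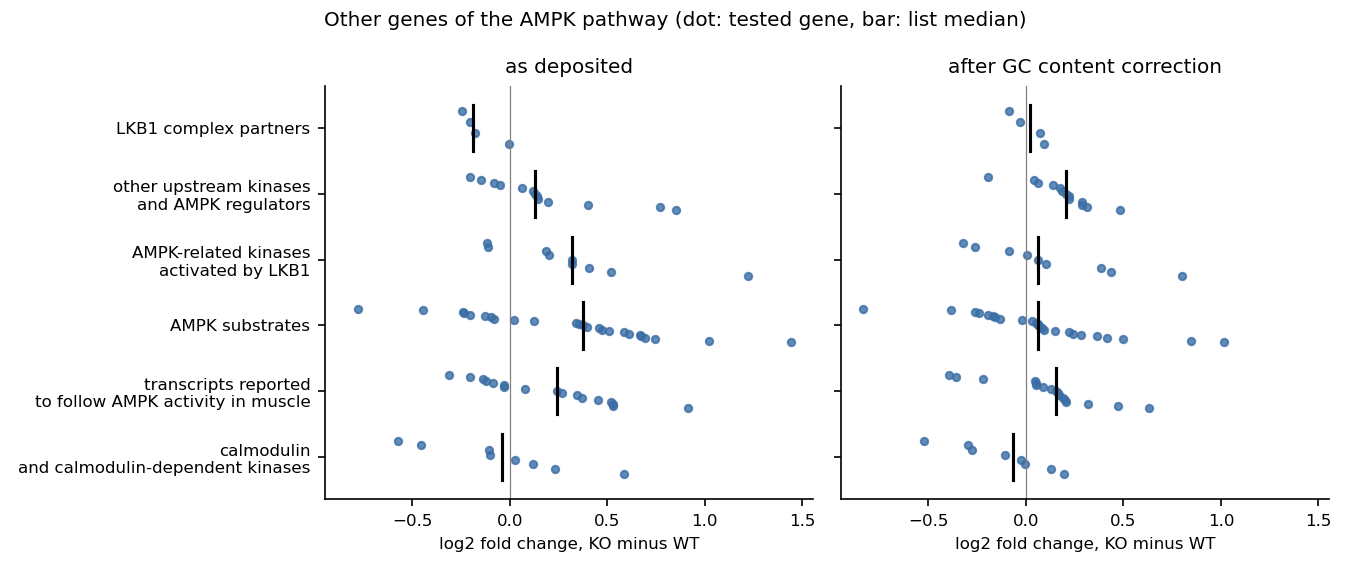
Log2 fold change, KO minus WT, of each tested gene of 6 lists around AMPK, as deposited on the left and after the correction for GC content on the right, with a black bar at the median of each list. The medians as deposited run from -0.19 to 0.37, and after the correction from -0.07 to 0.20.

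The genes whose profile over the 6 libraries was most like that of the highest member of each role were sought over all tested genes, by the root mean square difference of centred log2 values. Nearest to *Prkaa2* were *Prpf38a* (0.033), *Polr3k* (0.035) and *Tbl1xr1* (0.036), with a GC content of 40.2% to 42.7%. Nearest to *Prkab2* were *Pitpna* (0.029), *Pstpip2* (0.046) and *Phka1* (0.053), the last of which encodes the muscle regulatory subunit of phosphorylase kinase. *Prkag3* had no neighbour as close, the nearest being *Cgref1* (0.072), *Mau2* (0.091) and *Hps4* (0.098). *Stk11* was followed by *Peli2* (0.044), *Fbxo31* (0.046) and *Rnf220* (0.049), with a GC content of 50.9% to 59.1%. These are the closest of many profiles over 6 libraries, and are given as a description.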

How the data were processed

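RNA from the gastrocnemius of 3 WT and 3 KO mice was sequenced as paired reads after TruSeq stranded mRNA library preparation. The authors used TopHat to map reads to GRCm38 and Cufflinks to quantify genes, and they deposited FPKM values without counts. Tool versions and the annotation release are not given in the sources used here. Depth was estimated from the steps of low FPKM values, of which 88.3% to 91.8% lay within 0.15 of a whole fragment. Any pair of libraries had at most 1 equal value above 0. Annotation, GC content and sequences came from GENCODE vM21 on GRCm38.

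Genes whose mean over 6 libraries reached 0.5 FPKM were tested with limma 3.58.1 in R 4.3.3, with its variance trend, on log2(FPKM + 0.1). Shares were compared by exact permutation tests, two-sided (SciPy 1.17.1). For GC content, a loess curve (span 0.3) of each library's deviation from the 6-library mean against GC content was subtracted. The procedure was tested on simulated data. Of 100 genes with a true log2 change of 1 it called 45, and of 100 with a change of 2 it called 84, with 6 false calls. Changes as small as those of the members were not simulated. The members, lists and tests were chosen with earlier results of these data known. Named list genes were set by a rule on function, whatever their values, with any other list gene past the adjusted threshold, of which there were 0. Replicate numbers were not used to pair libraries. Whether the 3 mice of a genotype shared a litter or a batch is not given, so p-values measure the spread between these libraries.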

Additional observations from a re-analysis of the deposited data

How the results depend on the processing

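Of the alternatives, the correction for GC content moved *Prkaa1* (from -0.37 to -0.008), *Prkaa2* (from -0.44 to -0.09) and *Stk11* (from 0.51 to -0.023) most. The same held for *Prkab1* (from 0.20 to -0.21) and *Prkag3* (from 0.015 to -0.27). *Prkab2*, *Prkag1*, *Prkag2* and *Camkk2* moved further under other alternatives. Of 143 values of a member under an alternative, 126 kept their sign, 17 reversed and 3 passed the adjusted threshold, all 3 with limma's array weights (*Prkaa1* -0.29, *Prkaa2* -0.41, *Stk11* 0.54), which called 1 member higher and 2 lower. The correction for GC content, alone or with the replicate block, reversed *Prkab1* (-0.21), *Prkag3* (-0.27), *Stk11* (-0.023) and *Camkk2* (-0.057), and left 0 members higher and 0 lower at an unadjusted p under 0.05. Array weights reversed *Prkab1* (-0.054), *Prkag3* (-0.11) and *Camkk2* (-0.21) and gave 3 members higher and 3 lower at that p. *Prkag3* was also reversed by median scaling (-0.077) and the length correction (-0.061). With each library left out, log2 values ranged from -0.035 to 0.332 for *Prkab1*, -0.27 to 0.24 for *Prkag3* and -0.05 to 0.48 for *Camkk2*, and 1 to 2 members were lower at an unadjusted p under 0.05. *Camkk2* was not tested at a filter of 1 FPKM.

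Over all genes, 31 were called higher and 9 lower. Higher calls were 7 with a pseudocount of 1 FPKM, 9 without a filter, 15 with median scaling, 12 without the variance trend, 1863 with array weights, 6 with the replicate block, 6 with GC content corrected, 5 with both, and 9 with length corrected. Lower calls were 4 with a pseudocount of 1 FPKM and 1284 with array weights. With each library left out, 6 to 19 were higher and 5 to 19 lower. List medians moved to 0.019 (GC content) and -0.28 (median scaling) for LKB1 partners, to 0.06 for LKB1-activated kinases and 0.064 for substrates (GC content). Left-out libraries gave 0.037 to 0.242 for other regulators and 0.036 to 0.355 for transcripts that follow AMPK. The cause was not tested. The replicate block changed no call of a member, and left 2 LKB1-activated kinases past an unadjusted p under 0.05 in place of 4, and 1 other regulator in place of 2. The same-numbered libraries had deviations correlated at -0.03, -0.08 and 0.03, against -0.07 to 0.09 for differently numbered ones. The numbers thus did not mark libraries that were more alike. Whether same-numbered mice shared a litter or a batch is not given. Within a number, the share differences moved to 1.93 (1) and -2.34 (7) percentage points for *Prkaa2*, -0.71 (8) for *Prkab2*, and 9.90 (1) and -10.3 (7) for *Prkag3*, and correction for GC content moved *Prkab2* to 0.14. Depth limits *Camkk2* and *Kcnab2* most.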
